A study of Mus musculus with 12 samples.

Results

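The genes of 9 enzymes or subunits of the tricarboxylic acid (TCA) cycle were followed in mouse hearts: Cs, Idh3a, Idh3b, Idh3g, Ogdh, Suclg1, Suclg2, Fh1 and Mdh2. The 9 genes were taken by symbol from the table of read counts, which lists 25171 genes and loci, and all 9 were found and passed the filter on low counts in every comparison. RNA of heart tissue was sequenced from 12 mice, as 4 groups of 3. EIIa-tg mice were 30 days old and carried, at Rosa26, NOTCH2NLC with a run of 98 GGC repeats behind a loxP-flanked stop, which EIIa-Cre removes in all tissues. Their littermate controls (EIIa-ctl) were of the same age and lacked EIIa-Cre. Myh6-tg mice were 90 days old and carried the same conditional transgene with Myh6-creERT2, a Cre that is made in cardiomyocytes and activated by tamoxifen. They received tamoxifen in corn oil at 75 mg per kg from day 60, in 3 injections given every other day, while the controls (Myh6-ctl), given the same genotype in the labels, received corn oil alone. By these labels tamoxifen and active Cre came together with the transgene product in Myh6-tg hearts, and their parts cannot be told apart.

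Some labels go against other information on the hearts. EIIa-tg replicates 2 and 3 carry genotype names that differ from that of replicate 1 and were placed by their titles. Esr1, an estrogen receptor gene of the kind fused to Cre where tamoxifen activates it, was at 2331, 1384 and 1031 normalised CPM (counts scaled to library size) in Myh6-ctl replicates 1, 2 and 3 and at 1.30, 2.52 and 1.00 in Myh6-tg replicates, although the labels give these groups 1 genotype. The Myh6-tg hearts were thus near the EIIa hearts, at 0.408 to 1.23, and the signal stood in the hearts labelled as controls. Every comparison of the Myh6 groups, and of the models, carries this difference too. Group names are those of the labels, and the part of this difference in the results was not tested. The protocol names brain as the source of RNA, but the summed level of 10 cardiomyocyte markers was between 12036 and 47294 normalised CPM in the 12 hearts. Totals ran from 38343106 to 50969834 counts per heart, and the 13 genes of mitochondrial DNA that code for protein held 35.1% ± 1.36 (SD, n = 3) of all reads counted in EIIa-ctl and 30.7% ± 1.99 in EIIa-tg mice, then 35.9% ± 3.56 in Myh6-ctl and 17.3% ± 1.62 in Myh6-tg mice.

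The TCA cycle runs in the mitochondrial matrix, where it oxidises acetyl-CoA from fatty acids, pyruvate, ketone bodies and amino acids to CO2 and hands electrons to the respiratory chain as NADH and FADH2. Heart muscle, which works without rest, draws most of its ATP from this route, and its cardiomyocytes are densely filled with mitochondria. All 9 enzymes are encoded in the nucleus and imported, and many such genes are activated through the coactivator Ppargc1a, estrogen-related receptors (ERRs) and the factors NRF1 and GABPA.

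Cs, citrate synthase, lies at chr10:128337734-128362479 (plus strand) of GRCm38. The 3 subunit genes of the NAD-dependent isocitrate dehydrogenase are Idh3a at chr9:54586334-54604661 (plus strand), Idh3b at chr2:130279309-130284547 (minus strand) and Idh3g at chrX:73778963-73786897 (minus strand). Ogdh, the first component of the 2-oxoglutarate dehydrogenase complex, is at chr11:6291633-6356642 (plus strand). For succinyl-CoA ligase, Suclg1 is at chr6:73248382-73276911 (plus strand) and Suclg2 at chr6:95473009-95718800 (minus strand). Fh1, fumarase, is at chr1:175600374-175625635 (minus strand) and Mdh2, the mitochondrial malate dehydrogenase, at chr5:135778480-135790398 (plus strand). All 9 are annotated as protein-coding in GENCODE M21. The library kit is not stated to keep strand, so reads of overlapping genes on opposite strands cannot be separated. The 3' end of Idh3b shares 5 bases with Nop56, and Fh1 shares 5255 bases with Kmo on the other strand, which averaged 56.6 counts per heart against 14092 for Fh1.

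Suclg2 and Fh1 passed the strictest rule in Myh6-tg hearts, Idh3b had the lowest fold change, and EIIa groups of Idh3g overlapped in normalised CPM. Promoter sequence is shown for these 4 members, on which results below turn. These are the 250 bases before the annotated start, in the direction of the gene, from RefSeq on GRCm38.p6, at chr6:95718847-95719096, chr1:175625636-175625885, chr2:130284452-130284701 and chrX:73786898-73787147, all of them on the minus strand. RefSeq starts can differ from the gene bounds above: that of Idh3b lies inside them and that of Suclg2 just before them. Capitals mark exact matches on either strand to 5 motifs: the ERR element AAGGTCA, the NRF1 motif GCGCANGCG, the ETS motif CCGGAAG that GABPA binds, the YY1 motif AAGATGG and the Sp1 box GGGGCGG.
Suclg2: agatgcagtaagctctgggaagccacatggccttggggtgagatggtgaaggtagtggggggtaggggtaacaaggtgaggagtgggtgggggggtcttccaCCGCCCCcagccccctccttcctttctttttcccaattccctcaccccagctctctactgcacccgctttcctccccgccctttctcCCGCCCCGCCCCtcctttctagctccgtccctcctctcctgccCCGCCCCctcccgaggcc
Fh1: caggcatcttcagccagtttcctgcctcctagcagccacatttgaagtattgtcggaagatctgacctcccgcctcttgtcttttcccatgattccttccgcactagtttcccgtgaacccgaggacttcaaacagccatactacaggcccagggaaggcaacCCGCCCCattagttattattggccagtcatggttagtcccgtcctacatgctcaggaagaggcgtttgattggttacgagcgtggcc
Idh3b: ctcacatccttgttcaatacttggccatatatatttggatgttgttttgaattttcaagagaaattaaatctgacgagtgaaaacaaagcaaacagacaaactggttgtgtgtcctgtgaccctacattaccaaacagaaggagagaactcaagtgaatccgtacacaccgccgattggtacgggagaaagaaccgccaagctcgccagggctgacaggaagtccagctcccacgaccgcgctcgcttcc
Idh3g: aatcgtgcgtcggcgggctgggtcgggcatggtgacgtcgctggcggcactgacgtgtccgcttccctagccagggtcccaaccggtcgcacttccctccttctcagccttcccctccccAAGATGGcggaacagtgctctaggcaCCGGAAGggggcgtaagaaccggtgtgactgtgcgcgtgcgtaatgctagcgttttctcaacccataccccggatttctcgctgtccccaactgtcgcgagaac

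RefSeq windows matched 8 of the 9 members, all but Idh3a, with 13 windows in all because Ogdh has several starts. The ERR element was in 0 of the 13 windows and in 4.08% of all 32851 windows of this length. Sp1 boxes were in 5 of the 13 windows, from 5 members, Cs, Ogdh, Suclg2, Fh1 and Mdh2, and in 21.0% of all windows. Suclg2 had 4 Sp1 matches, of which a pair overlapped. Idh3g was the member with an ETS match (1 of the 13 windows, 6.91% of all windows) and with a YY1 match (1 of the 13 windows, 4.49% of all windows). The NRF1 motif was in 2 of the 13 windows and in 5.16% of all windows. Both are overlapping windows of Ogdh that hold the same site. The start of Idh3g lies 131 bases from that of Ssr4 on the opposite strand, and that of Mdh2 lies 95 bases from Styxl1, so these windows reach into a shared stretch. Exact matches are a description of these letters and no measure of binding.

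Levels of different genes were compared as FPKM, the authors' values per length of transcript. In EIIa-ctl hearts Mdh2 was the highest member at 792 ± 50.3 FPKM (SD, n = 3), followed by Cs at 407 ± 27.7, Ogdh at 381 ± 32.7 and Idh3b at 364 ± 17.8. The ranges over hearts of Cs and Ogdh overlapped, as did those of Ogdh and Idh3b. Idh3g was next at 303 ± 14.4, then Idh3a at 228 ± 9.41, Suclg1 at 202 ± 7.48 and Fh1 at 151 ± 6.60, with no overlap between neighbours. Suclg2 was lowest at 49.2 ± 1.10 FPKM. In Myh6-ctl hearts Mdh2 (648 ± 99.7) and Suclg2 (44.9 ± 2.34) again stood at the ends, while Ogdh, Cs, Idh3b and Idh3g overlapped from neighbour to neighbour. In Myh6-tg hearts Idh3g, the fifth of the order in both control groups, was second at 208 ± 30.6 FPKM behind Mdh2 at 444 ± 158, with a range that overlapped those of Cs and Ogdh. Idh3b was at 106 ± 39.8, with a range that overlapped that of Idh3a at 107 ± 37.9. Idh3g was likewise second in EIIa-tg hearts at 347 ± 11.6 FPKM, where its range overlapped that of Cs.

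The 9 genes together took 0.646% ± 0.0376 of all counts in EIIa-ctl and 0.530% ± 0.0616 in EIIa-tg mice, then 0.527% ± 0.0408 in Myh6-ctl and 0.299% ± 0.0955 in Myh6-tg mice. In whole tissue, fewer cells of a type and less RNA per cell cannot be told apart.

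**Figure D1:**
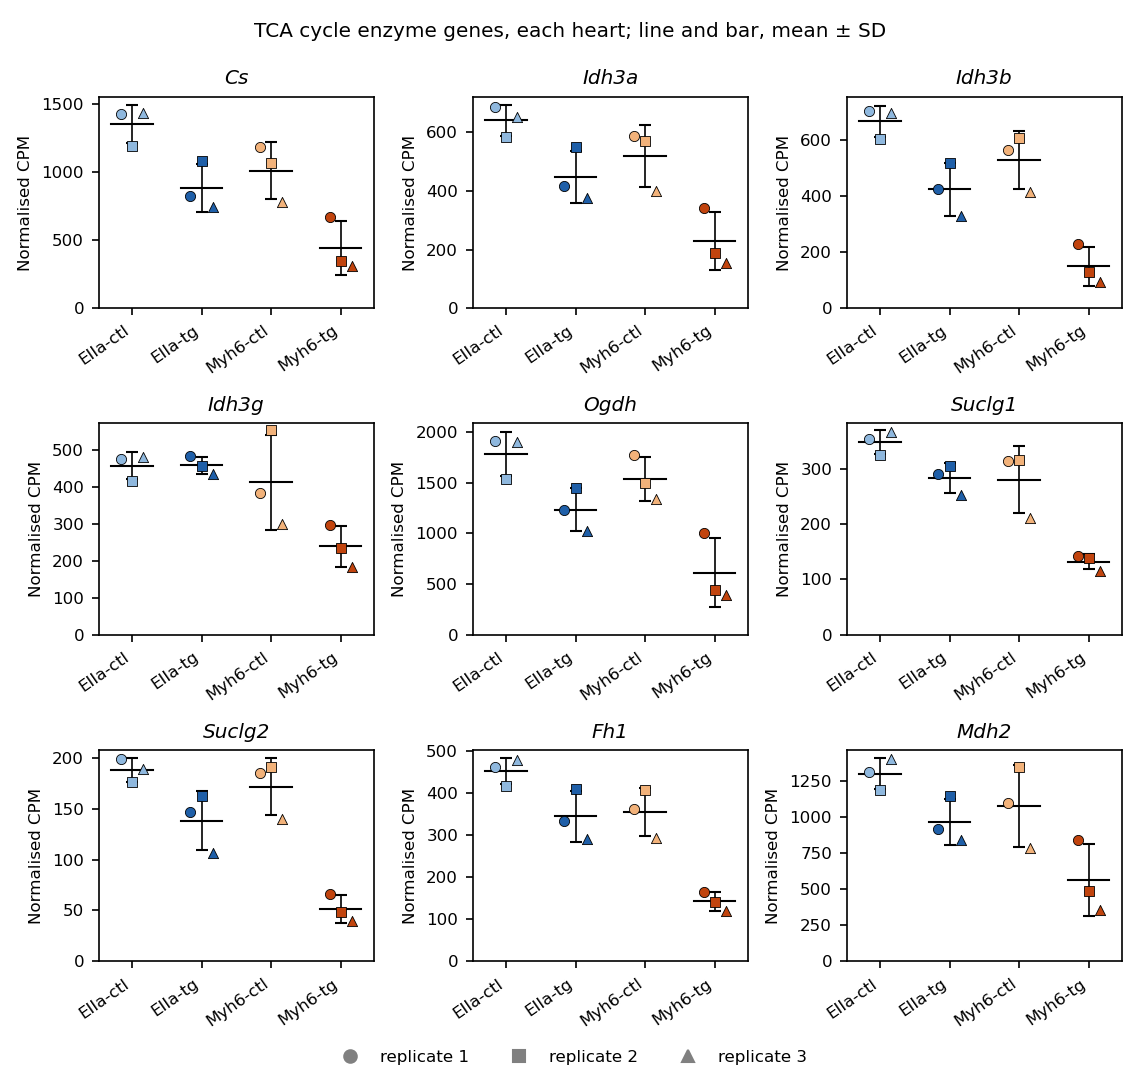
Normalised CPM (y axis, from 0) of the 9 TCA cycle enzyme genes in each of 12 hearts by group, with symbols for the replicate, a line at the mean and bars of 1 SD (n = 3). All 3 Myh6-tg hearts lie below the Myh6-ctl hearts for 8 genes, Mdh2 being the other, and the EIIa groups overlap for Idh3g.

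The first comparison asked which members differ in the EIIa-tg heart at day 30. Cs and Idh3b were lower than in EIIa-ctl, at 65.1% and 63.5% of the control level. These were 2 of 9 members with an adjusted p under 0.05 in edgeR's quasi-likelihood test, adjusted over 14908 genes, where 8.3% of all genes tested were called lower. The 6 further members other than Idh3g had fitted log2 fold changes between -0.53 and -0.30 with adjusted p between 0.0572 and 0.0937, and Idh3g was at -0.0008. The median over the members was -0.44 on the log2 scale, against 0.02 over all genes tested. All 3 EIIa-tg hearts were below all 3 EIIa-ctl hearts for 8 of the 9 members, against 20.8% of genes tested. At an unadjusted p under 0.05 8 members were lower, against 17.4% of genes tested, and none reached the rule of the study for a differentially expressed gene (DEG), an adjusted p under 0.01 with a log2 fold change of at least 1. The count of 2 changed with each heart left out. It was 8 without EIIa-tg replicate 2, and 0 without any 1 of the other hearts. Calls over all genes changed too, from 1238 genes lower in the main fit. That number was 0, 785 and 0 without EIIa-ctl replicates 1, 2 and 3, and 0, 2110 and 29 without EIIa-tg replicates 1, 2 and 3.

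The second comparison asked the same of the Myh6-tg heart at day 90. Here Suclg2, Idh3b, Fh1, Suclg1, Idh3a and Cs were lower than in Myh6-ctl, at between 28.4% and 47.1% of the control level. That is 6 of 9 members at an adjusted p under 0.05, against 9.38% of the 15298 genes tested called lower. Suclg2 and Fh1 were DEGs in edgeR's test, 2 of 9, against 2.05% of genes that were lower DEGs. With DESeq2, the tool to which the study applied this rule, all 9 members were called lower, against 11.6% of 17711 genes, and 7 were DEGs, against 6.99%. Ogdh at -1.33 (adjusted p = 0.0506), Idh3g at -0.79 (adjusted p = 0.0974) and Mdh2 at -0.94 (adjusted p = 0.113) missed the threshold. The median over members was -1.19 on the log2 scale, against 0.03 over all genes tested. Hearts did not overlap for 8 of the 9 members, against 19.6% of genes, and all 9 were lower at an unadjusted p under 0.05, against 16.8% of genes. Same-numbered hearts of this model deviated together, and with the replicate number as a block 8 members were called, Ogdh (adjusted p = 0.0137) and Mdh2 (adjusted p = 0.0411) being added, and 3 were DEGs. The count was 2, 3 and 4 without Myh6-ctl replicates 1, 2 and 3, and 9, 2 and 3 without Myh6-tg replicates 1, 2 and 3. Over all genes 1435 were called lower in the main fit and 1711 with the block. That number was 411, 913 and 949 without Myh6-ctl replicates 1, 2 and 3. Without Myh6-tg replicates 1, 2 and 3 it was 2226, 486 and 471.

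**Figure D2:**
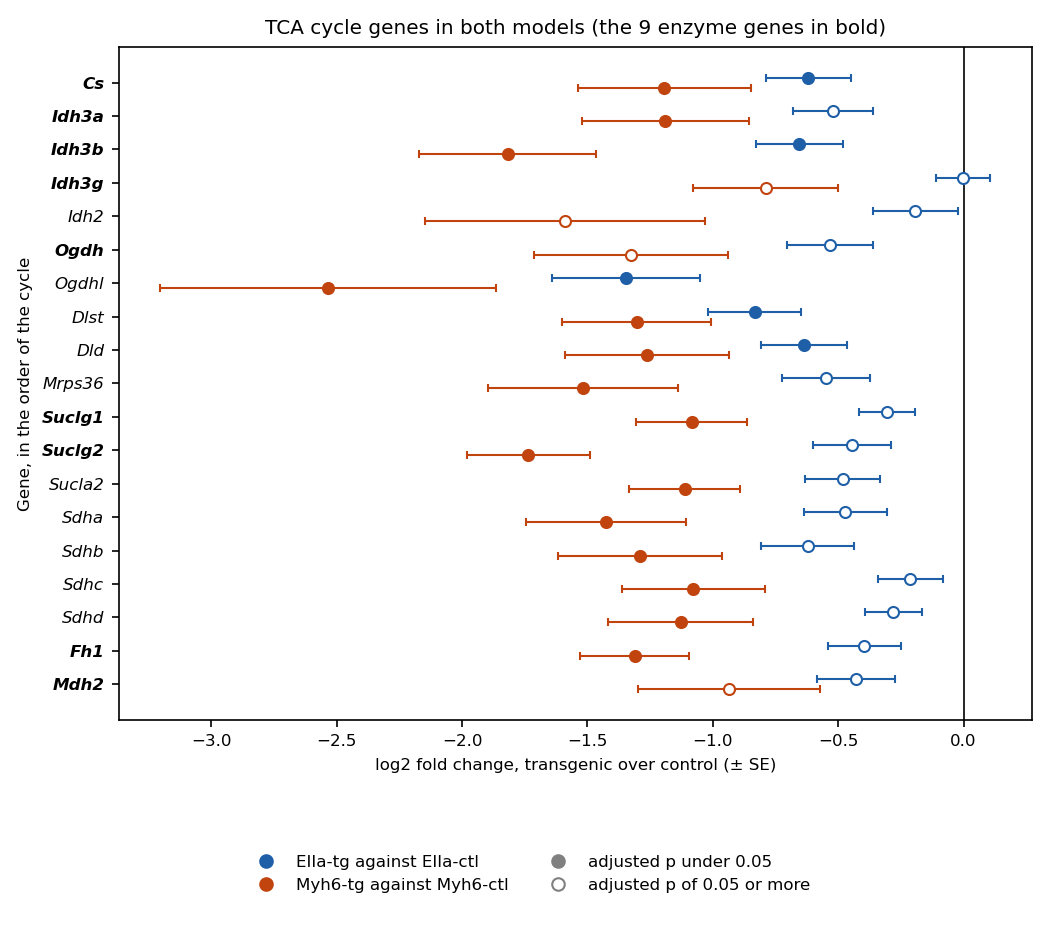
Log2 fold change (x axis, bars of 1 SE) of transgenic over control hearts for the 9 members (bold) and 10 other TCA cycle genes in the order of the cycle, for both models, filled where the adjusted p was under 0.05. Every value lies at or below 0, and the Myh6 value lies to the left of the EIIa value for each gene.

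The cycle opens with citrate synthase, which joins acetyl-CoA to oxaloacetate. Cs stood at 1430.0, 1195 and 1436 normalised CPM in EIIa-ctl replicates 1, 2 and 3 and at 823, 1079 and 747 in EIIa-tg replicates. It was at 1187, 1068 and 777 in Myh6-ctl and at 669, 347 and 311 in Myh6-tg mice. Neither pair of groups overlapped, and EIIa-tg replicate 2 and Myh6-tg replicate 1 were the highest of their groups. The fitted log2 fold change of Cs was -0.62 (SE 0.17, adjusted p = 0.0429) in the EIIa model and -1.19 (SE 0.35, adjusted p = 0.0491) in the Myh6 model.

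NAD-dependent isocitrate dehydrogenase carries out the rate-setting oxidation of isocitrate, with Idh3a as its catalytic subunit and Idh3b and Idh3g as the subunits needed for activity and allosteric control. Idh3a was at 687, 584 and 652 normalised CPM in EIIa-ctl and 417, 549 and 376 in EIIa-tg mice, and at 589, 572 and 398 in Myh6-ctl and 341, 189.5 and 153 in Myh6-tg mice. Groups of a model were separate in both cases, with Myh6-ctl replicate 3 closest to Myh6-tg replicate 1. Its fold change was -0.52 (SE 0.16, adjusted p = 0.0572) in EIIa and -1.19 (SE 0.33, adjusted p = 0.0446) in Myh6 hearts.

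Idh3b was at 702, 602 and 695 normalised CPM in EIIa-ctl and 426, 518 and 328 in EIIa-tg mice, then 564, 608 and 414 in Myh6-ctl and 228, 129 and 93.3 in Myh6-tg mice. Every Myh6-tg heart was well under the lowest Myh6-ctl heart, and the EIIa groups did not overlap either. It had the lowest fitted change of the 9 members in both models, -0.65 (SE 0.17, adjusted p = 0.0393) in EIIa and -1.82 (SE 0.35, adjusted p = 0.0146) in Myh6 hearts.

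Idh3g, whose gene is on the X chromosome, behaved otherwise in the EIIa model. It was at 474, 416 and 482 normalised CPM in EIIa-ctl and at 482, 457 and 436 in EIIa-tg mice, and the groups overlapped. On the authors' FPKM they did not overlap, at 288 to 317 in EIIa-ctl and 334 to 355 in EIIa-tg mice. In normalised CPM its level was 383, 553 and 301 in Myh6-ctl and 297, 235 and 184 in Myh6-tg mice. There the highest transgenic heart was just under the lowest control. The fold change was -0.0008 (SE 0.11, adjusted p = 0.996) in EIIa and -0.79 (SE 0.29, adjusted p = 0.0974) in Myh6 hearts. In EIIa hearts it was 0.20 on the log2(FPKM + 0.1) scale (limma), without a call under any alternative. Ssr4, the gene across its start site, was at 34.6, 33.6 and 34.8 normalised CPM in EIIa-ctl and 41.3, 36.2 and 34.6 in EIIa-tg mice.

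The next oxidation is that of 2-oxoglutarate, by a complex whose E1 component is Ogdh. Ogdh was at 1914, 1533 and 1897 normalised CPM in EIIa-ctl and 1228, 1449 and 1025 in EIIa-tg mice. In the other model it was at 1772, 1492 and 1338 in Myh6-ctl and 1003, 445 and 389 in Myh6-tg mice. Myh6-tg replicate 1 stood well above the other Myh6-tg hearts, yet below the lowest control. The fold change was -0.53 (SE 0.17, adjusted p = 0.0642) in EIIa and -1.33 (SE 0.39, adjusted p = 0.0506) in Myh6 hearts, so neither passed, the second by a narrow margin.

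Succinyl-CoA ligase turns succinyl-CoA into succinate while forming a nucleoside triphosphate. Suclg1 is the alpha subunit of every form, Suclg2 the beta subunit that makes GTP, and Sucla2 the beta subunit that makes ATP. Suclg1 was at 354, 325 and 366 normalised CPM in EIIa-ctl and 291, 305 and 253 in EIIa-tg mice, then 315, 316 and 210.2 in Myh6-ctl and 142, 139 and 116 in Myh6-tg mice. The 3 Myh6-tg hearts were close together and all below the controls. Its fold change was -0.30 (SE 0.11, adjusted p = 0.0937) in EIIa and -1.08 (SE 0.22, adjusted p = 0.0169) in Myh6 hearts.

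Suclg2 was at 199, 176 and 189 normalised CPM in EIIa-ctl and 147, 162 and 106 in EIIa-tg mice. It was at 185, 191 and 139.8 in Myh6-ctl and only 66.4, 48.7 and 39.5 in Myh6-tg mice. No Myh6-tg heart came near the lowest control. Suclg2 had the lowest p of the 9 members in Myh6 hearts, with a fold change of -1.74 (SE 0.24, adjusted p = 0.00563) that left 30.0% of the control level, and stayed called under all 18 alternatives (adjusted p between 6.63e-09 and 0.0303). In EIIa hearts it was -0.44 (SE 0.16, adjusted p = 0.0832).

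Fumarase hydrates fumarate to malate, in the matrix and, as the product of the same gene, in the cytosol. Fh1 was at 463, 417 and 479 normalised CPM in EIIa-ctl and 335, 409 and 290.3 in EIIa-tg mice, then 363, 408 and 294 in Myh6-ctl and 166, 142 and 121 in Myh6-tg mice. The highest Myh6-tg heart was far under the lowest Myh6-ctl heart, while EIIa-tg replicate 2 came close to EIIa-ctl replicate 2. Its fold change was -0.40 (SE 0.15, adjusted p = 0.0925) in EIIa and -1.31 (SE 0.22, adjusted p = 0.00917) in Myh6 hearts, and the Myh6 call was kept under all 18 alternatives (adjusted p between 8.85e-07 and 0.0463).

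Mdh2 closes the cycle by oxidising malate to oxaloacetate. Mdh2 was at 1310.3, 1189 and 1404 normalised CPM in EIIa-ctl and 915, 1147 and 841 in EIIa-tg mice. It was at 1095, 1346 and 783 in Myh6-ctl and 841, 487 and 358 in Myh6-tg mice, where Myh6-tg replicate 1 stood above Myh6-ctl replicate 3. It was the single member with overlapping Myh6 groups, and its fold change was -0.43 (SE 0.15, adjusted p = 0.0877) in EIIa and -0.94 (SE 0.36, adjusted p = 0.113) in Myh6 hearts.

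Whether the response differed between the models was tested as the change in Myh6-tg minus the change in EIIa-tg, in all 12 hearts. The difference was negative for all 9 members and passed for Suclg2 alone, at -1.29 (SE 0.30, adjusted p = 0.0324), which is 1 of 9 against 2.27% of the 15929 genes tested. Fh1 at -0.92 (adjusted p = 0.0698), Suclg1 at -0.78 (adjusted p = 0.0992) and Idh3b at -1.16 (adjusted p = 0.142) did not pass. The other members ran from -0.80 for Ogdh to -0.51 for Mdh2, and the median was -0.79 against -0.04 over all genes. The count was 0 without any 1 of EIIa-ctl replicates 1, 2 and 3, EIIa-tg replicates 1 and 2, Myh6-ctl replicates 1 and 2, or Myh6-tg replicates 2 and 3. It was 3 without Myh6-ctl replicate 3, 5 without Myh6-tg replicate 1 and 1 without EIIa-tg replicate 3. Over all genes 361 were called lower in the main fit, and 167 to 1081 in these fits, the most without Myh6-tg replicate 1. The models differ in age, in where and when Cre acts and in tamoxifen, which by the labels Myh6-tg mice alone received. The Esr1 difference between the Myh6 groups enters as well. These cannot be told apart in the difference.

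The control groups were compared as Myh6-ctl minus EIIa-ctl, which differ in age, Cre line and oil injection together. In edgeR's test 0 of 9 members were called, 0 had an unadjusted p under 0.05, and DESeq2 called 0, while 0.0334% of the 14990 genes tested were called in either direction. All 9 fitted values were negative, from -0.42 for Cs to -0.13 for Suclg2. Cs, Suclg1 and Fh1 had all 3 Myh6-ctl hearts below the EIIa-ctl hearts, 3 of 9 against 8.71% of genes tested. Idh3g turned to 0.03 without Myh6-ctl replicate 3.

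Ratios within a heart do not depend on how libraries were scaled to each other. The ratio of Idh3b to Idh3a, as FPKM, was 1.47, 1.63 and 1.60 in Myh6-ctl and 1.00, 1.03 and 0.934 in Myh6-tg mice. These groups were far apart beside their spread, 1.57 ± 0.0835 against 0.988 ± 0.0477 (log2 difference -0.67, exact permutation p = 0.1, adjusted p = 0.25). The two-sided exact test of 3 against 3 hearts cannot go below 0.1, so no ratio could pass, and p-values were adjusted over 10 tests. In the EIIa model the same ratio was 1.60 ± 0.0402 in EIIa-ctl and 1.44 ± 0.117 in EIIa-tg mice, with overlap (log2 difference -0.15, exact permutation p = 0.2, adjusted p = 0.25).

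The ratio of Idh3g to Idh3a was 1.29, 1.32 and 1.38 in EIIa-ctl and 2.16, 1.52 and 2.15 in EIIa-tg mice. Each transgenic heart was above the controls, replicate 2 least so (log2 difference 0.53, exact permutation p = 0.1, adjusted p = 0.25). In Myh6 hearts it was 1.47 ± 0.300 in controls and 2.03 ± 0.384 in transgenic hearts, with overlap (log2 difference 0.46, exact permutation p = 0.2, adjusted p = 0.25).

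Suclg2 to Suclg1, the GTP-forming beta subunit over the shared alpha subunit, was 0.265, 0.272 and 0.300 in Myh6-ctl and 0.211, 0.159 and 0.154 in Myh6-tg mice. Every Myh6-tg heart was below the controls (log2 difference -0.69, exact permutation p = 0.1, adjusted p = 0.25). The same held for Suclg2 to Sucla2, the GTP-forming over the ATP-forming beta subunit, at 0.249 ± 0.0226 in Myh6-ctl and 0.159 ± 0.0187 in Myh6-tg mice (log2 difference -0.65, exact permutation p = 0.1, adjusted p = 0.25). In EIIa hearts both ratios overlapped between groups, Suclg2 to Suclg1 at 0.244 ± 0.0106 and 0.219 ± 0.0265 and Suclg2 to Sucla2 at 0.206 ± 0.00571 and 0.211 ± 0.0259.

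The fifth ratio set the NAD-dependent Idh3a against Idh2, the NADP-dependent isocitrate dehydrogenase of the matrix. Idh3a to Idh2 was 0.242, 0.220 and 0.251 in Myh6-ctl and 0.243, 0.440 and 0.477 in Myh6-tg mice. Myh6-tg replicates 2 and 3 were above the controls and replicate 1 was among them (log2 difference 0.64, exact permutation p = 0.2, adjusted p = 0.25). In EIIa hearts the ratio was 0.251 ± 0.00844 in controls and 0.206 ± 0.0509 in transgenic hearts, with overlap (log2 difference -0.32, exact permutation p = 0.3, adjusted p = 0.333).

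**Figure D3:**
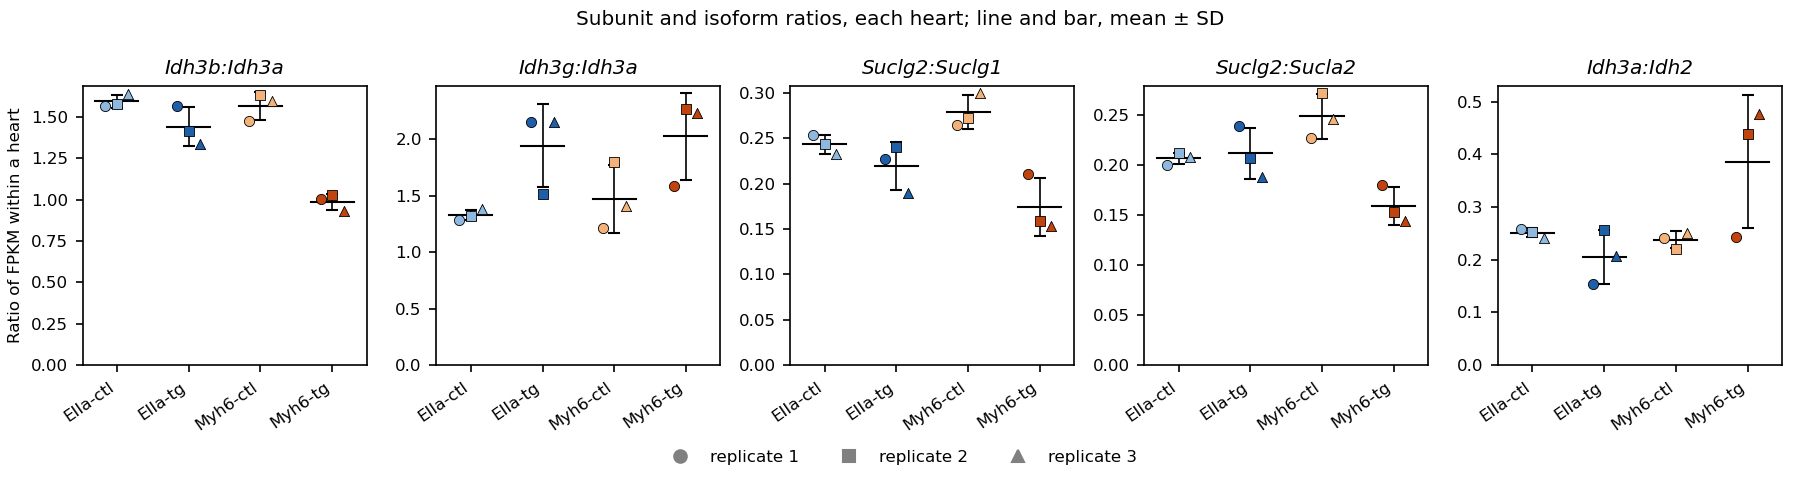
Ratios of FPKM (y axis, from 0) within each of 12 hearts by group for 5 pairs of subunits or isoforms, with a line at the mean and bars of 1 SD (n = 3). Idh3b:Idh3a, Suclg2:Suclg1 and Suclg2:Sucla2 lie lower in all 3 Myh6-tg hearts than in Myh6-ctl hearts, and Idh3g:Idh3a lies higher in all 3 EIIa-tg hearts than in EIIa-ctl hearts.

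A further 11 genes of the cycle were followed, and 10 were tested, since Csl, a citrate synthase-like gene, was near 0. In EIIa hearts 3 fell and none rose. These were Dlst at -0.83 (adjusted p = 0.0261) and Dld at -0.64 (adjusted p = 0.0408), the E2 and E3 components that act with Ogdh, and Ogdhl at -1.35 (adjusted p = 0.0251), a paralog of Ogdh. In Myh6 hearts 9 of 10 fell, with a median of -1.30 on the log2 scale. Ogdhl was at -2.53 (adjusted p = 0.037), Dlst at -1.30 (adjusted p = 0.0232), Dld at -1.26 (adjusted p = 0.0347) and Mrps36, which holds E3 to the same complex, at -1.52 (adjusted p = 0.0309). All 4 subunit genes of succinate dehydrogenase fell, Sdha at -1.43 (adjusted p = 0.0218), Sdhb at -1.29 (adjusted p = 0.0329), Sdhc at -1.08 (adjusted p = 0.0371) and Sdhd at -1.13 (adjusted p = 0.0332). Sucla2 fell as well, at -1.11 (adjusted p = 0.0157). Idh2 was at -1.59 (adjusted p = 0.0864) and did not pass. Of all genes tested, 8.3% were called lower in EIIa and 9.38% in Myh6 hearts.

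Enzymes that feed or drain the cycle moved with the members in part. Of all genes tested, 8.3% were called lower in EIIa and 9.38% in Myh6 hearts. Called higher were 1289 of 14908 genes in EIIa and 1370 of 15298 in Myh6 hearts. Of 12, 5 fell in EIIa hearts, the pyruvate dehydrogenase genes Pdha1 (-0.64), Pdhb (-0.57), Dlat (-0.79) and Pdhx (-0.63) and Oxct1 (-1.28), which activates ketone bodies. In Myh6 hearts 3 fell, Oxct1 at -1.85 (adjusted p = 0.00945), Pdhb at -1.18 (adjusted p = 0.0195) and the malic enzyme Me3 at -1.40 (adjusted p = 0.0467). Pdha1 was at -0.98 (adjusted p = 0.072), Dlat at -0.91 (adjusted p = 0.0726) and Pdhx at -1.11 (adjusted p = 0.109) there, and the difference between models did not pass for any of the 3. At an unadjusted p under 0.05 8 of the 12 were lower in Myh6 hearts, and DESeq2 called 7 lower. Pck2, the mitochondrial phosphoenolpyruvate carboxykinase, rose instead, at 0.90 (adjusted p = 0.0148). Of 8 carriers, 4 fell and 1 rose in EIIa hearts, Mpc1 (-0.46), Mpc2 (-0.41), Slc25a11 (-0.77) and Slc25a13 (-1.30) against the citrate carrier Slc25a1, at 0.76 (adjusted p = 0.022). In Myh6 hearts 3 fell, the pyruvate carrier subunit Mpc2 at -1.33 (adjusted p = 0.0126), the oxoglutarate carrier Slc25a11 at -1.58 (adjusted p = 0.0166) and the aspartate/glutamate carrier Slc25a13 at -1.93 (adjusted p = 0.0209). Slc25a1 was at 0.61 (adjusted p = 0.139) there.

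Counterparts outside the matrix gave 1 call among 5. The cytosolic malate dehydrogenase Mdh1 fell in Myh6 hearts, at -1.28 (adjusted p = 0.048), while the cytosolic Aco1 was at -0.36 (adjusted p = 0.228) and Idh1 at -0.35 (adjusted p = 0.278). In EIIa hearts edgeR called 0 of the 5, and 4 had an unadjusted p under 0.05. Of these 3 were lower and 1 was higher, Me1 at 0.31 (adjusted p = 0.0724). DESeq2 called 2 of the 5 lower and 1 higher. Of 11 genes of the outer mitochondrial membrane and import machinery, Timm44 fell in EIIa hearts, at -0.71 (adjusted p = 0.0168). In Myh6 hearts the matrix chaperonin Hspd1 fell, at -1.61 (adjusted p = 0.0032), as did the import channel Timm23, at -0.90 (adjusted p = 0.049). These calls, 1 of 11 and 2 of 11, stand beside 8.3% and 9.38% of all genes tested called lower.

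Of 12 regulators of mitochondrial genes, 3 fell in each model, against 8.3% of genes tested called lower in EIIa and 9.38% in Myh6 hearts. In Myh6 hearts 9 of the 12 had values below 0, and 3 lay above 0 without a call, Nrf1 (0.31), Yy1 (0.24) and Gabpa (0.03). In EIIa hearts 10 were below 0, and Nrf1 (0.26) and Yy1 (0.21) lay above 0 without a call. Gabpa was at -0.06 there. Ppargc1a, the coactivator at the head of this program, was at 63.0, 41.8 and 54.8 normalised CPM in EIIa-ctl and 57.5, 43.2 and 47.8 in EIIa-tg mice. It was at 66.1, 96.5 and 143 in Myh6-ctl and 26.4, 17.4 and 14.6 in Myh6-tg mice. The EIIa groups overlapped, and all Myh6-tg hearts were below every heart of the other groups. Its change was -0.11 (adjusted p = 0.673) in EIIa and -2.39 (adjusted p = 0.00588) in Myh6 hearts, and the difference between them passed, at -2.28 (adjusted p = 0.0112). Perm1, a muscle regulator that acts with Ppargc1a and the ERRs, was at 250.3, 182 and 251 in EIIa-ctl and 139, 163 and 115 in EIIa-tg mice, then 293, 164 and 194 in Myh6-ctl and 46.2, 34.3 and 29.2 in Myh6-tg mice. It fell in both models, at -0.72 (adjusted p = 0.0308) and -2.57 (adjusted p = 0.00311), and the difference passed as well, at -1.86 (adjusted p = 0.0134). Of the ERR genes, Esrrb fell in EIIa hearts, at -0.61 (adjusted p = 0.0431), as did Esrrg, at -0.68 (adjusted p = 0.0227). Esrra fell in Myh6 hearts, at -1.16 (adjusted p = 0.0196), where Esrrb was at -1.34 (adjusted p = 0.141) and Esrrg at -1.75 (adjusted p = 0.0803). The test of the difference between models did not pass for any of the 3 (adjusted p of 0.0724 for Esrra, 0.584 for Esrrb and 0.413 for Esrrg).

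**Figure D4:**
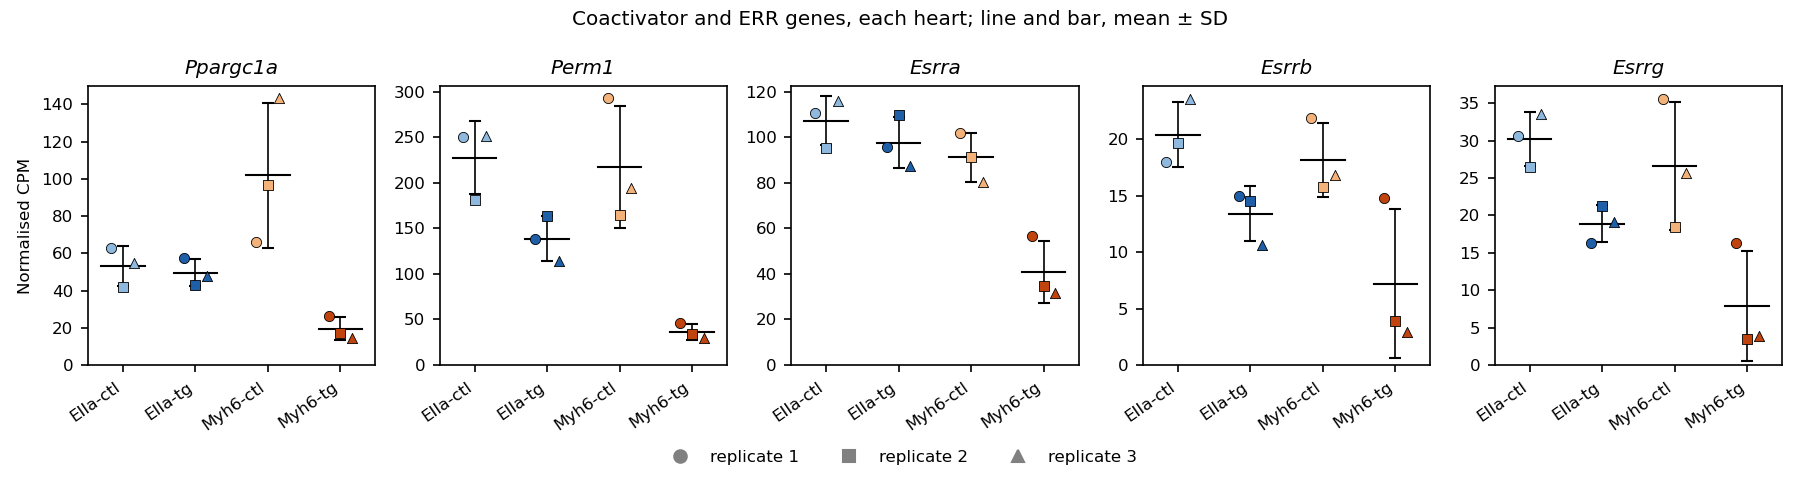
Normalised CPM (y axis, from 0) of 2 coactivator genes and 3 ERR genes in each of 12 hearts by group, with a line at the mean and bars of 1 SD (n = 3). Ppargc1a overlaps between the EIIa groups and lies lower in all 3 Myh6-tg hearts than in any other heart, and Perm1 is lower in the transgenic hearts of both models.

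The members followed each other over hearts. Over the 12 hearts the median Pearson correlation of a member's log2 CPM with the other 8 ran from 0.896 for Idh3g to 0.981 for Idh3b. Once group means were subtracted it ran from 0.754 for Suclg1 and 0.779 for Idh3g to 0.943 for Idh3b. Hearts share depth and tissue make-up across genes, so these values are a description. Of 10196 other genes with a mean of at least 5 CPM, Ldhb (r = 0.996), the heart-type lactate dehydrogenase, followed the mean pattern of the members most closely over the 12 hearts, then Slc25a3, Atp5a1, Mrps35 and Cyc1 (r of 0.995). On deviations from group means the closest were Slc25a4 (r = 0.993), the heart ADP/ATP carrier, Phyh (r = 0.992), Uqcrfs1 (r = 0.991), Ndufs3 and Apoo (both r = 0.989).

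Markers of cell types also differed between groups, in a direction that depended on the cell type. The summed level of the 10 cardiomyocyte markers was 39364 to 47294 normalised CPM in EIIa-ctl and 20457 to 34907 in EIIa-tg mice, then 30875 to 42086 in Myh6-ctl and 12036 to 34123 in Myh6-tg mice. The highest transgenic hearts were EIIa-tg replicate 2 and Myh6-tg replicate 1, which also had the highest sums of the 9 members in their groups. Among these markers 2 of 10 fell in EIIa hearts (Myl3 and Ryr2) and 4 in Myh6 hearts (Myh6, Tnni3, Myl2 and Myl3). Of all genes tested, 8.3% and 9.38% were called lower. At an unadjusted p under 0.05 in edgeR 7 markers were lower in EIIa and 4 in Myh6 hearts, against 17.4% and 16.8% of genes. DESeq2 called 5 and 4 lower. Myh6 was at -1.34 (adjusted p = 0.0773) in EIIa hearts. Another 4 had fitted values above 0 in Myh6 hearts with no call, Actn2 at 0.58 (adjusted p = 0.214), Tnnt2 at 0.44 (adjusted p = 0.559), and Tnnc1 and Ttn both at 0.03. The make-up of the sum differed between groups. Myh6 held 24.4% of it in Myh6-ctl and 7.31% in Myh6-tg mice, Actc1 30.3% and 33.5%, and Tnnt2 10.6% and 26.2%. In the other model Myh6 held 28.9% in EIIa-ctl and 19.2% in EIIa-tg mice, Actc1 26.3% and 23.8%, and Tnnt2 9.46% and 17.0%. Per 100 normalised CPM of the markers, the 9 members summed to 17.8, 16.4 and 16.1 in EIIa-ctl and 24.8, 17.4 and 20.9 in EIIa-tg mice. They summed to 15.8 ± 0.801 in Myh6-ctl and 13.2 ± 1.93 in Myh6-tg mice (SD, n = 3). On this scale the sums of the EIIa groups overlapped, and those of the Myh6-tg hearts were below their controls. Singly, Idh3a, Idh3b, Ogdh and Suclg2 were below their controls without overlap in Myh6-tg hearts. In EIIa-tg hearts Idh3g, Suclg1, Fh1 and Mdh2 were above their controls without overlap. The share of all genes without overlap was not computed on this scale. Suclg2 per 100 CPM of markers was 0.461 ± 0.014 in Myh6-ctl and 0.279 ± 0.073 in Myh6-tg mice, and Idh3b was 1.41 ± 0.064 and 0.757 ± 0.081.

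Fibroblast markers summed to 1476 to 2157 normalised CPM in EIIa-ctl and 2744 to 3949 in EIIa-tg mice, then 1966 to 2530 in Myh6-ctl and 3300 to 8134 in Myh6-tg mice, and 2 of 8 rose in EIIa (Dcn and Pdgfra) and 4 of 8 in Myh6 hearts (Col1a1, Col1a2, Pdgfra and Postn). All 8 macrophage markers rose in EIIa hearts, with sums of 469 to 730.5 in EIIa-ctl and 1004 to 1320 in EIIa-tg mice. In Myh6 hearts edgeR called 0 of the 8, with 1 at an unadjusted p under 0.05 and 1 called by DESeq2, and sums of 879 to 1458 in Myh6-ctl and 1005 to 2272 in Myh6-tg mice. Of 6 endothelial markers, Cdh5 and Kdr fell in EIIa hearts. In Myh6 hearts edgeR called 0 of the 6, with 2 at an unadjusted p under 0.05, and DESeq2 called 2. Of 6 adipocyte markers both tools called 0 in either model, and edgeR gave 2 of 3 tested in EIIa and 0 of 4 tested in Myh6 hearts an unadjusted p under 0.05. Of 4 atrial markers, Nppa rose in EIIa hearts, at 1.46 (adjusted p = 0.0326), and Myl4 in Myh6 hearts, at 3.11 (adjusted p = 0.0131). The atrial markers summed to 153 to 1816 in Myh6-ctl and 4188 to 6524 in Myh6-tg mice. Most of this was Nppa, at means of 908 and 5173 normalised CPM. Its change of 2.51 did not pass in edgeR (adjusted p = 0.0581). In Myh6-ctl and Myh6-tg mice Myl4 was at 1.92 and 16.5, Myl7 at 0.0759 and 1.96, and Sln at 0.0345 and 0.724. Of all genes tested, 1289 of 14908 were called higher in EIIa and 1370 of 15298 in Myh6 hearts. The part of these cell type markers in the members' results was not tested.

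**Figure D5:**
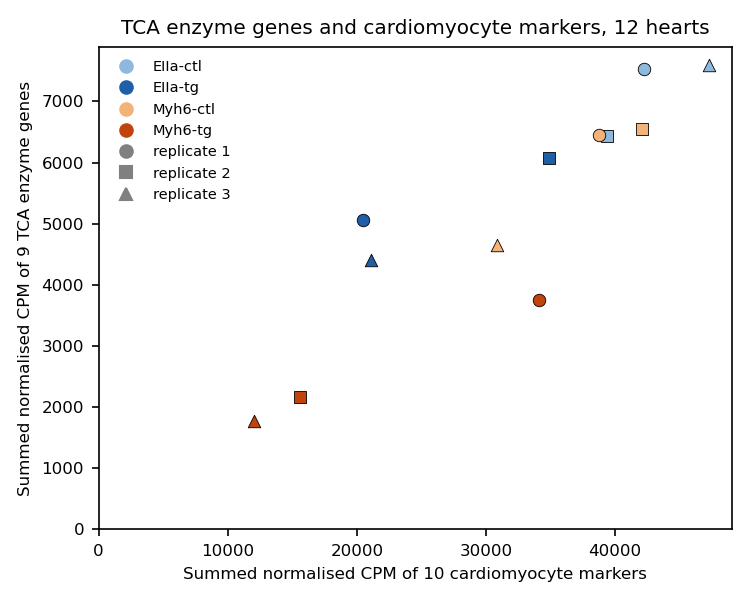
Summed normalised CPM of the 9 TCA enzyme genes (y axis) against that of 10 cardiomyocyte markers (x axis) in 12 hearts, coloured by group with symbols for the replicate. Myh6-tg replicates 2 and 3 lie lowest on both axes, and Myh6-tg replicate 1 has a marker sum within the range of the Myh6-ctl hearts with a member sum below all of them.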

How the data were processed

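Heart RNA of 12 mice in 4 groups of 3 was analysed. Libraries were made with the NEBNext Ultra kit and sequenced as paired-end reads, and the reads were mapped with HISAT2, for which the submitters' processing notes give version 2.0.4. The study names GRCm38 and the notes list mm10 and GRCm39, so positions here come from GENCODE M21 on GRCm38 by Ensembl identifier and not from the files. The authors deposited counts, the unscaled whole number of reads on each gene, and FPKM, which the authors scaled to transcript length and mapped fragments. The notes also list StringTie 2.2.1, with no role given, and the counting program is not given in the sources used here. Totals ran from 38343106 to 50969834 counts per heart.

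Genes were kept by filterByExpr, scaled by TMM and fitted with glmQLFit, followed by glmQLFTest, of edgeR 4.0.16 in R 4.3.3, with Benjamini-Hochberg adjustment over all genes tested. Transgenic and control hearts of a model were compared in a fit of these 6 hearts, the control groups with each other, and the 2 changes against each other in a fit of all 12. A call is an adjusted p under 0.05. Normalised CPM are counts scaled to the TMM-adjusted library size. Ratios of FPKM within a heart were tested on the log2 scale by two-sided exact permutation. The labels call the samples biological replicates, and p-values measure the spread between them.

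Same-numbered hearts were checked by correlating deviations from group means over 15929 genes. In the Myh6 model r was 0.285, 0.184 and 0.173 for the same number, and between -0.239 and 0.048 for different numbers. In the EIIa model it was 0.060, -0.070 and -0.050 for the same number, and between -0.087 and 0.137 for different numbers. A pairing of the Myh6 hearts was read from these values alone. It entered only the replicate block, and the main tests and the ratio tests were unpaired.

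Members, lists, motifs and tests were chosen with earlier results of these data known. All 9 members and 11 other TCA cycle genes are named, and of other lists up to 3 genes with the lowest p in the Myh6 comparison, genes called against the direction of their list, and the 5 genes closest in pattern to the members on either basis. Genes that make up a count of 5 or fewer were named after their values were seen, as were Esr1, Ssr4, Kmo, the ERR genes in the plot and the scale per cardiomyocyte marker. Alternatives were DESeq2 1.42.0, RLE factors, no filter or a CPM minimum of 1 in 3 samples, the replicate block, all 12 hearts in 1 fit, mt- genes left out, the DEG rule, limma 3.58.1 on log2 FPKM with pseudocounts of 1 and 0.1, with or without an FPKM minimum of 0.5 in 3 samples, and each heart left out. Library totals without TMM and the bias-adjusted quasi-likelihood were added after seeing the data. The edgeR tests were run on simulated counts with the same dispersion for every gene, as a check of the code and not of power in these data. The transgene and 1 other gene of the cycle are not reported here. Promoter windows came from RefSeq on GRCm38.p6.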

Additional observations from a re-analysis of the deposited data

Results flagged for a closer look

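Suclg2, the GTP-forming beta subunit of succinyl-CoA ligase, was the member whose response differed between the models by a test of the difference itself: the change in Myh6-tg minus the change in EIIa-tg was -1.29 on the log2 scale (SE 0.30, adjusted p = 0.0324, edgeR). It was negative under all 23 alternatives, from -1.52 to -1.04, and passed in 14 of them, with adjusted p between 0.00209 and 0.0866. The models also differ in age, in Cre line and in tamoxifen, which by the labels Myh6-tg mice alone received. The Esr1 difference between the Myh6 groups enters as well. These cannot be told apart from the transgene here.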

How the results depend on the processing

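The number of members called lower in EIIa hearts, 2 by edgeR, was 8 with DESeq2, 1 with library totals in place of TMM, and 0 with the DEG rule, with limma on log2(FPKM + 1) without a filter and with all 12 hearts in 1 fit. Leaving out each heart gave 0 to 8. Over all genes 1238 were called lower in EIIa hearts by edgeR, 1736 with DESeq2 and 642 with library totals. That number was 0 with the DEG rule and with limma without a filter, and 51 with all 12 hearts in 1 fit. It was 0 to 2110 with each heart left out. In Myh6 hearts the count of 6 was 9 with DESeq2 and with all 12 hearts in 1 fit, 4 with library totals and with limma without a filter, 2 under the DEG rule and 2 to 9 with each heart left out. The DEG count of 2 was 7 with DESeq2 and with all 12 hearts in 1 fit, 1 with library totals and with limma without a filter, and 0 to 6 with each heart left out. For the difference between models the count of 1 was 3 with DESeq2, 2 with limma on log2(FPKM + 1), on log2(FPKM + 0.1) and without a filter, 0 under the DEG rule, and 0 to 5 with each heart left out. Over all genes 1435 were called lower in Myh6 hearts by edgeR, 2053 with DESeq2 and 2574 with all 12 hearts. That number was 854 with library totals, 777 with limma without a filter and 411 to 2226 with each heart left out. Lower DEGs were 314 by edgeR and 1238 with DESeq2, and were not counted under other settings. For the difference 361 were lower by edgeR, 804 with DESeq2, 241, 248 and 175 in these limma fits and 54 under the DEG rule. The causes were not tested. No member was called in the opposite direction under any of these settings, and the count between controls stayed at 0 in all.

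With the replicate number as a block, the EIIa count was 0 and the Myh6 count 8, while the difference stayed at 1 and the controls at 0. Over all genes the block called 0 lower in EIIa hearts, 1711 in Myh6 hearts and 297 for the difference. EIIa hearts share only a number, so their blocked count says nothing on pairing.

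Scaling moved all genes together: in Myh6 hearts the median over all genes was 0.43 without TMM and 0.34 on log2(FPKM + 1), against 0.03 with TMM, and that of the members -0.81 and -0.85, against -1.19. In EIIa hearts the medians over all genes were 0.21 and 0.16, with members at -0.26 in both. Without TMM, 854 genes were lower and 3153 higher in Myh6 hearts, against 1435 and 1370 with it, and 642 and 2531 in EIIa hearts, against 1238 and 1289. With 3 hearts a group, the exact test of ratios could not pass, and totals per heart limit only genes near 0, such as Csl.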
